A study of Sus scrofa with 22 samples.

Results

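The cells described here are those of the library labelled pgEpiSC_high, pig stem cells of lines derived from the epiblast of embryonic day 10 (E10) before gastrulation. They were taken as all cells of the deposited count table whose names begin with pgEpiSC_high, which gave 96 of the 1647 cells of the series. The remaining cells were 93 of the library labelled pgEpiSC_low, from the same kind of line and with the same labelled stage and tissue, and 1458 cells in 20 libraries of pig embryos from E0 to E14. What high and low stand for, whether they are separate lines or cultures of a single line, and how the cells were cultured are not stated in these sources. Each pgEpiSC library stands alone, so no difference between them has a replicate and no test was made; every comparison below is between libraries, and every spread is between cells of 1 library.

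The epiblast is the tissue of the early embryo that forms the body, and stem cell lines derived from it keep a pluripotent state in culture. Such states are commonly ordered as naive, formative and primed; POU5F1, SOX2 and NANOG are the transcription factors shared by them, and signalling by FGF and by Nodal or activin is known to maintain the primed state. At gastrulation epiblast cells that leave this state form the primitive streak and start to express genes such as TBXT, MIXL1 and EOMES.

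Cells of pgEpiSC_high had from 18186 to 569861 counts over pig genes, with a median of 169412, and from 4294 to 11082 detected genes. The pgEpiSC_low cells were shallower, with a median of 136321 counts, and 4 high and 12 low cells had under 50000 counts. Mitochondrial genes took a median of 1.73% of the counts of a high cell and 1.92% of a low cell, ribosomal protein genes 7.31% and 8.42%, and spike-in RNA 0.985% and 1.05%. All 96 cell barcodes of pgEpiSC_high were also used in embryo libraries, and 93 of them in pgEpiSC_low. Levels below are CPM, the counts of a gene divided by all pig counts of the cell, or of all cells of a library, and multiplied by 1000000. They are not divided by gene length, so the levels of different genes are not ranked against each other. A gene without counts has an upper limit of 3 counts in the whole library, which is 0.150 CPM in pgEpiSC_high and 0.223 CPM in pgEpiSC_low.

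The pluripotency factors were present in nearly every cell. POU5F1 (ENSSSCG00000001393, chr7:23564654-23570691 in Sscrofa11.1), the POU-domain factor of pluripotent cells, had counts in 100% of the cells, from 45.9 to 840 CPM with a median of 291. SOX2 (ENSSSCG00000037485, chr13:119668476-119669435), its partner on DNA, was counted in 97.9% of the cells, from 0 to 484 CPM with a median of 149. The counts of SOX2 are listed after the spike-in RNA, apart from the other pig genes, and are not in the authors' totals. NANOG was counted in 99.0%, from 0 to 355 CPM with a median of 60.5; the annotation lists 2 entries under this symbol, so reads could be shared with a copy. TAC3 (ENSSSCG00000000418, chr5:22324927-22336464), which encodes the neuropeptide neurokinin B, was counted in 100% of the cells, from 12.4 to 966 CPM with a median of 146. POU5F1, SOX2 and TAC3, taken here as markers of these cells, were thus counted in nearly all of them. The markers were chosen with earlier results of these data known, so this is no independent check of the label. The smallest and largest levels of TAC3 were further apart than those of POU5F1.

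The summed level of POU5F1 was 304 CPM in pgEpiSC_high and 468 in pgEpiSC_low, while that of SOX2 was 187 and 112. NANOG had 82.0 and 92.1 CPM. LIN28A and LIN28B, RNA-binding proteins that hold back maturation of the let-7 miRNAs, had 33.0 and 134 CPM in pgEpiSC_high beside 25.8 and 136 in pgEpiSC_low. ZFP42 had 71.3 CPM and UTF1, a chromatin-bound factor of pluripotent cells, 31.9. GDF3, a ligand of the TGF-beta family, had 51.9 CPM but counts in 70.8% of the cells, with a median of 15 and a highest cell at 341 CPM. TDGF1, the Nodal co-receptor, had 12.5 CPM and PRDM14 10.6, whereas DPPA2 and DPPA4 had 2.85 and 0.35. Of the 12 core pluripotency genes that could be named, a cell held counts of 4 to 11, with a median of 9, and their summed level ran from 161 to 1521 CPM between cells.

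**Figure D1:**
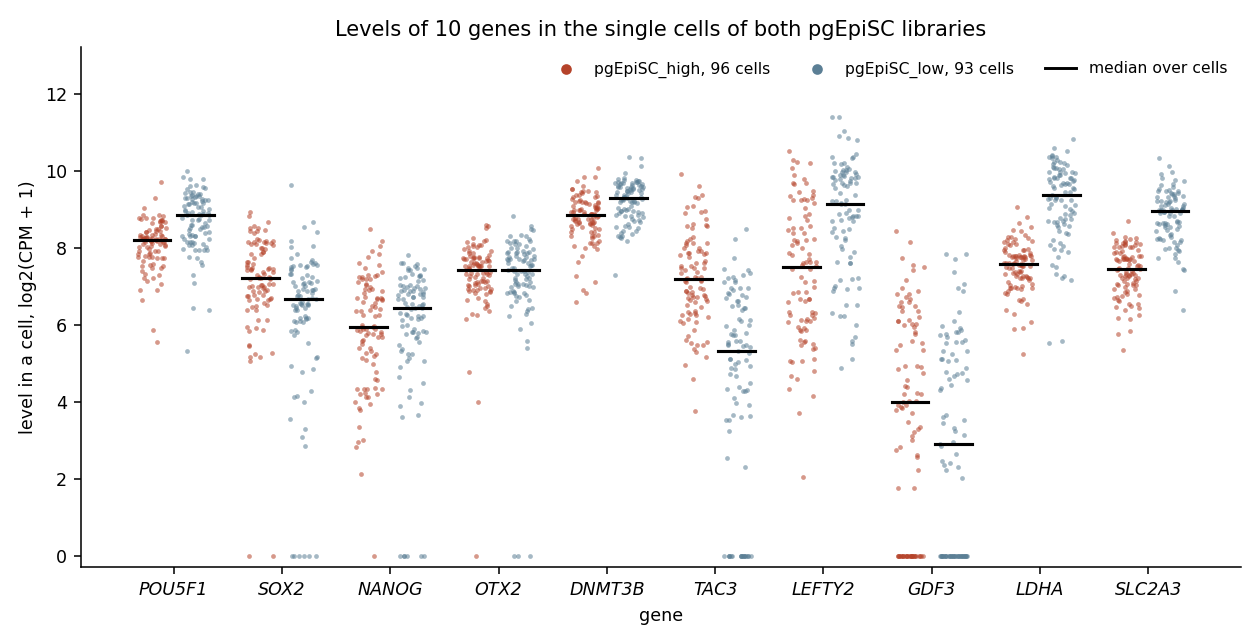
Level of 10 genes in each cell, as log2(CPM + 1), with 1 point per cell, 96 pgEpiSC_high and 93 pgEpiSC_low cells side by side, and a bar at the median over cells. The medians of TAC3 were 146 and 39.1 CPM, those of LEFTY2 179 and 563, and those of LDHA 190 and 658 in the high and the low library, and the points of both libraries overlapped for each gene.

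Genes used as markers of naive pluripotency were mostly near the floor. KLF17 had no count, and KLF2, TFCP2L1, TBX3, NR5A2, DPPA5 and FGF4 had from 0.10 to 2.10 CPM. ESRRB and KLF4 had 3.65 and 5.15 CPM. The members above 10 CPM were SOX15 at 74.0, TFAP2C at 20.7 and KLF5 at 15.5. TFAP2C, an AP-2 factor also known from germ cells and trophoblast, was counted in 52.1% of pgEpiSC_high and 22.6% of pgEpiSC_low cells, or in 35.9% and 13.6% with cells thinned to 50000 counts, with a highest high cell at 260 CPM. A cell held counts of a median of 3 of the 12 named naive genes, and never of more than 7.

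Several formative and primed genes were well expressed. DNMT3B, a DNA methyltransferase active in the epiblast, ran from 94.4 to 1072 CPM with a median of 461, and OTX2, a factor of the post-implantation epiblast, from 0 to 386 with a median of 172. ZIC2 and ZIC5 had 66.4 and 76.3 CPM, ETV4 and ETV5, which respond to FGF signalling, 40.5 and 56.9, and CDH2 (N-cadherin) 62.9. SFRP2, a secreted protein that binds WNT ligands, ran from 0 to 180 CPM with a median of 47.7. Others in the list were nearly absent: FGF5 had 0.30 CPM, POU3F1 0.15 and SOX3 no count.

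Genes listed for differentiated lineages ranged from those without counts, through those with a low level in part of the cells, to some counted in every cell. Counts of a listed gene do not place a cell in that lineage. In the authors' deposited means of log2(CPM/10 + 1), KRT8 had 5.70 in pgEpiSC_high and 6.49 in Epiblast_E10, and APOA1 3.76 and 3.73. Of the primitive streak and mesoderm genes, TBXT, MIXL1 and EVX1 had no count in all 96 cells, while EOMES had 6.34 CPM with counts in 35.4% of the cells, GSC 10.5 CPM in 49.0%, CER1, a secreted inhibitor of Nodal, 14.6 CPM in 49.0%, and SNAI1, a repressor of E-cadherin, 24.3 CPM in 72.9%. The summed level of this list had a median of 57.2 CPM over high cells and 62.1 over low cells, with a highest cell at 152 and 1074 CPM. A high cell had counts of a median of 3 of its 14 genes, and of at most 6.

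Endoderm genes gave the same mixture. SOX17 and PRDM1 had no count, FOXA2, a forkhead factor of endoderm, had 11.4 CPM with counts in 56.3% of the cells, and CXCR4 had 18 CPM in 76.0%. CLDN6, a tight-junction protein listed with definitive endoderm, had 735 CPM and counts in every cell. Of the hypoblast genes, FOXQ1 had no count and the defining factors GATA4 and GATA6 had 0.95 and 0.50 CPM, and PDGFRA 1.40. APOA1, an apolipoprotein listed with hypoblast, ran from 12.8 to 914 CPM with a median of 119, in every cell.

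Of the trophectoderm genes, CDX2 had no count and GATA2 and GATA3 had 0.05 CPM each. The keratins KRT8, KRT18 and KRT7 of the same list had 593, 213 and 50.2 CPM. Primordial germ cell genes gave no count of NANOS3, 52.2 CPM of KIT and 62.3 of DND1, whose reads may include those of WDR55 since the models of both genes overlap and their counts had a Pearson correlation of 0.974 over the cells. In neuroectoderm, PAX6 had 0.10 CPM and NEUROG2 and PAX3 none, beside 58.1 CPM of NES and 62.3 of TUBB3. Among the fibroblast genes, COL3A1 had no count and COL1A1 had 9.24 CPM, beside 198 of VIM and 120 of TAGLN.

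Genes of the cell cycle differed between the cells. With every cell thinned to 50000 counts, which left 92 of the 96 cells, 55 cells (59.8%, exact 95% binomial interval 49.0 to 69.9) had their higher score above 0 for genes of G2 and M, 27 (29.3%, 20.3 to 39.8) for genes of S phase, and 10 (10.9%, 5.34 to 19.1) for neither. In pgEpiSC_low the shares of its 81 cells were 35.8%, 38.3% and 25.9%. The scores were centred on both libraries together, so these are ranges of a score and not cell types. In 33 high cells the S score or the G2 and M score lay within 0.1 of 0. Without thinning the high shares were 57.3%, 33.3% and 9.38%. The G2 and M share of high cells was 51.6% with cells thinned to 20000 counts and 52.2% with scores centred on pgEpiSC_high alone. The intervals take the cells of 1 library as independent and do not cover these choices. The G2 and M score ran from -1.12 to 1.07 with a median of 0.28, against -0.20 in pgEpiSC_low, and had a Spearman correlation of 0.238 with the depth of the 92 cells.

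TOP2A, the topoisomerase that separates chromosomes in mitosis, ran from 14.9 to 1030 CPM in single cells with a median of 436. PCNA, the sliding clamp of replication, had 532 CPM in pgEpiSC_high and 507 in pgEpiSC_low. The inhibitor CDKN1A had 5.20 CPM and counts in 22.9% of the cells, beside 32.9 CPM and 53.8% in pgEpiSC_low; with cells thinned the shares were 9.78% and 42%. The median level of POU5F1 was 297 CPM in the S cells, 296 in the G2 and M cells and 231 in the rest, and that of SOX2 155, 173 and 110. ERAS, an embryonic Ras protein, had medians of 462, 104 and 294 CPM, and LEFTY2, a secreted Nodal inhibitor, 95.9, 195 and 185. The ranges of both genes overlapped between the classes, and the median depths of the classes were 161149, 185394 and 123366 counts.

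Spread between cells was measured as the squared coefficient of variation of CPM over the 92 cells, less the part expected from counting, and divided by the running median over genes of similar level. Over 4052 genes with a mean of at least 50 CPM in pgEpiSC_high the median squared coefficient was 0.148 there. For the same genes it was 0.195 in pgEpiSC_low. The genes were chosen by their level in pgEpiSC_high and the low cells were shallower, so these medians are not on equal terms. In pgEpiSC_high 54 genes had at least 4 times the spread of genes of similar level. LEFTY2 (ENSSSCG00000032299, chr10:13849052-13853438) had the most among named genes, 23.7 times, with cells from 3.11 to 1446 CPM and a median of 179, and it had a like value of 23.1 in pgEpiSC_low. ANXA1, a phospholipid-binding annexin, followed at 17.1, with cells from 0 to 950 CPM and a median of 51.7. ERAS was next at 16, with cells from 0 to 820 CPM and a median of 139; in pgEpiSC_low its median was 441 CPM and its relative spread 5.87.

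The other genes among the 20 with the highest relative spread fell into several kinds. TOP2A (10.4), UBE2C (7.46), CENPF (6.90), KPNA2 (6.29) and CCNB1 (5.85) are genes of mitosis or of its preparation, and H1-3 (7.53) encodes a linker histone. KRT8 (7.36) and CLDN7 (6.64) belong to epithelial cells, and TAGLN (6.31), ACTB (5.97) and S100A6 (7.94) to the cytoskeleton or to calcium binding. TAC3 had a relative spread of 7.93, against 2.80 in pgEpiSC_low, where its level was lower. Before division by the running median its squared coefficient was 0.719 in pgEpiSC_high and 1.01 in pgEpiSC_low. APOA1 had a relative spread of 8.04. TSTD1 (7.79) was counted in 72.9% of the cells, from 0 to 286 CPM with a median of 8.58. HNRNPK (7.04), the metallothionein gene MT1A (6.18) and MSMO1 (5.98), an enzyme of cholesterol synthesis, completed the 20.

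**Figure D2:**
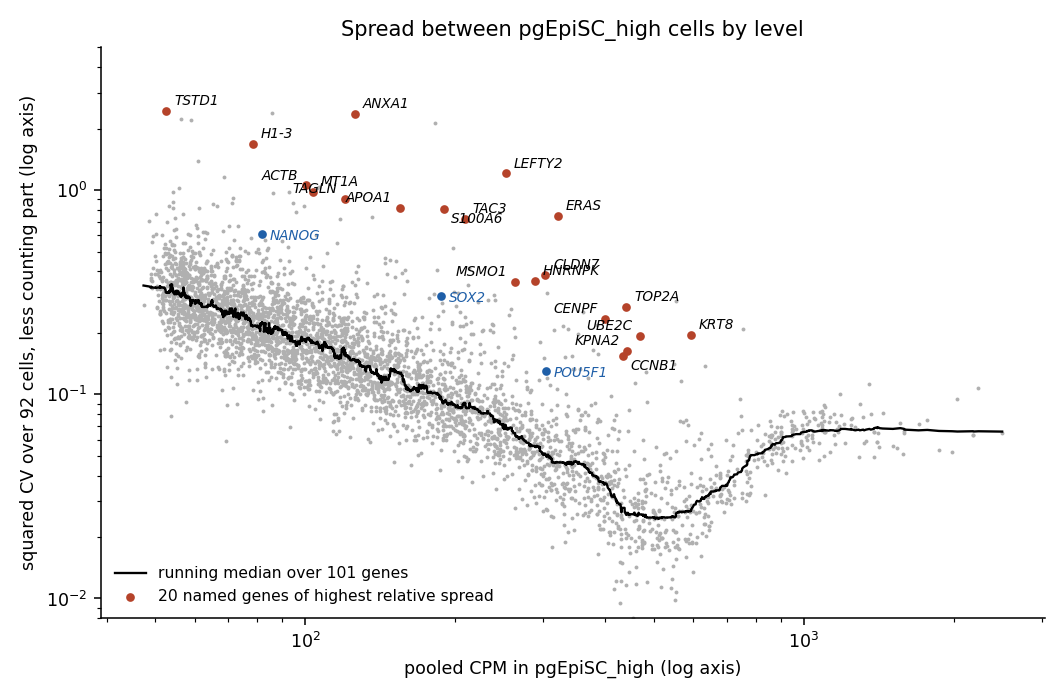
Squared coefficient of variation over 92 pgEpiSC_high cells, less the counting part, against the summed CPM of the library, both on log axes, with 1 point per gene and the running median over genes of similar level as a line. LEFTY2, ANXA1 and ERAS lie furthest above the line for their level, at 23.7, 17.1 and 16 times the running median. POU5F1, SOX2 and NANOG are not among the named genes of highest relative spread, and their ratios to the line are not given here.

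Some of the variable genes went together across the cells. The Spearman correlations that follow are across the 92 cells of a single library, which share its preparation and differ in depth, and are given as a description. KPNA2 and TOP2A had 0.86, and KRT8 and KRT18 0.79, which was 0.69 with cells thinned and 0.57 in the 81 cells of pgEpiSC_low. CLDN7, a claudin of epithelial junctions, went with KRT18 at 0.72, or 0.66 thinned, against 0.16 in pgEpiSC_low. ERAS went with KRT8 at 0.61, or 0.48 thinned, and with GDF3 at 0.57, or 0.53 thinned.

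LEFTY2 went the other way. Its correlation with KRT8 was -0.64, or -0.61 thinned, and with ERAS -0.61, or -0.59 thinned; in pgEpiSC_low the values were -0.28 and -0.43. Of 3667 genes compared, CRABP2, which carries retinoic acid in the cell, had the lowest correlation with LEFTY2 at -0.66, and TCEA3, CAV1, GNAS and PCP4 had high ones of 0.65, 0.61, 0.53 and 0.53. Cells high in LEFTY2 were therefore mostly low in KRT8 and ERAS. With depth LEFTY2 had a correlation of -0.20, ERAS of 0.12 and KRT8 of 0.13, while KRT18, CLDN7 and GDF3 of the pairs above had 0.37, 0.35 and 0.30.

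TAC3 had its lowest correlations with TPMT at -0.53, NANOG at -0.46 and ERAS at -0.46, and its highest with BPHL at 0.46. The value for NANOG was -0.37 with cells thinned and -0.07 in pgEpiSC_low. POU5F1 and SOX2 had a correlation of 0.42 that was 0.16 with cells thinned. The correlations of ANXA1 with the genes compared ran from -0.38 with U2SURP to 0.36 with POP7.

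**Figure D3:**
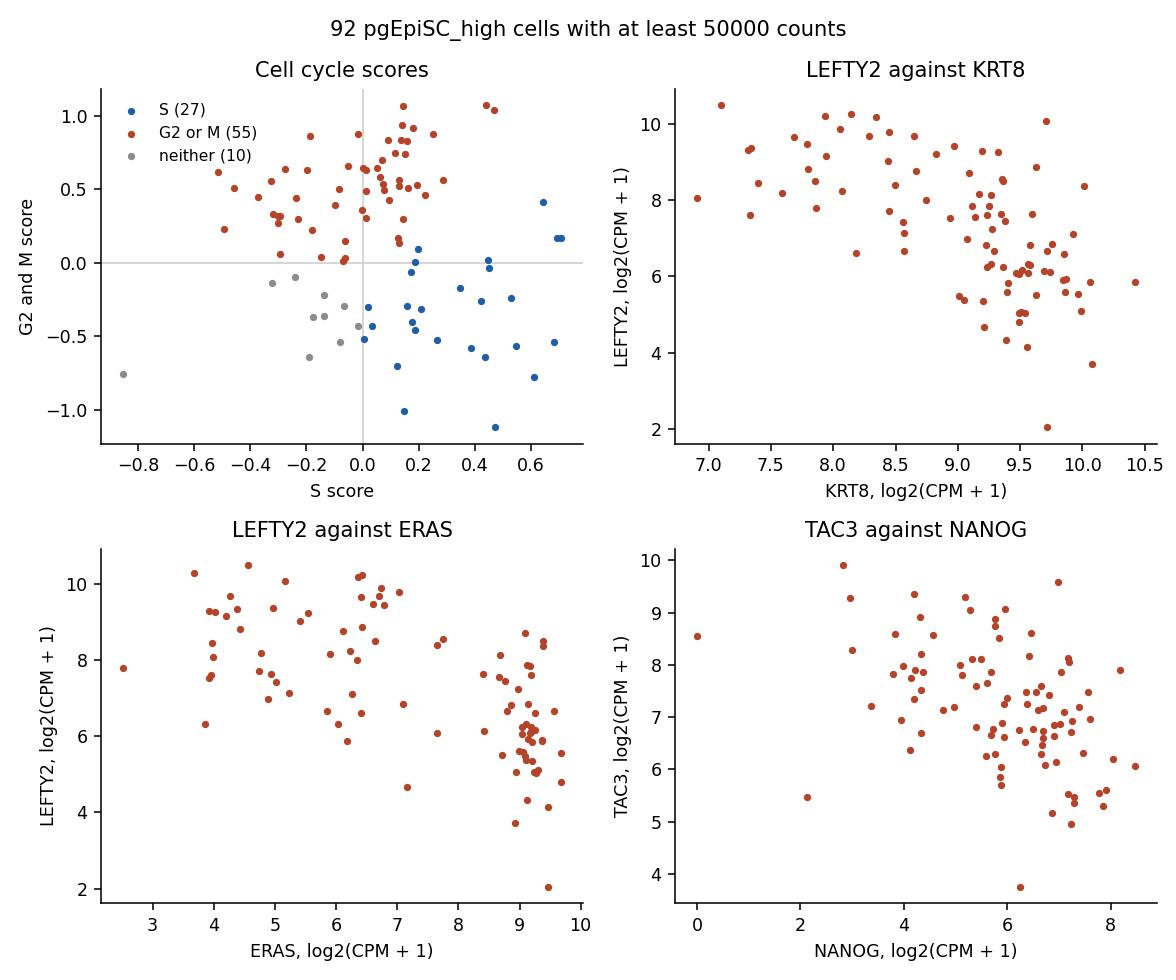
S against G2 and M scores, and 3 pairs of genes as log2(CPM + 1), in the 92 pgEpiSC_high cells with at least 50000 counts, 1 point per cell. The scores place 55 cells in G2 and M, 27 in S and 10 in neither; LEFTY2 is low in most cells with high KRT8 or ERAS (Spearman -0.64 and -0.61), and TAC3 against NANOG gives -0.46.

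Set against pgEpiSC_low, a gene was called where the log2 ratio of CPM + 1 was at least 1 in size, with at least 50 CPM in the higher library and 100 summed counts. Of 4456 genes compared, 24 (0.539%) were called higher in pgEpiSC_high and 36 (0.808%) lower, 60 (1.35%) in all. These counts come from 1 library a side and carry no test. A gene under 50 CPM in 1 library was compared only through the other, which fixed the sign of its ratio. Of the genes with values here, the models of BMPR1A, CBFB, CDH2, CDK1, CENPF, CTNNB1, ENO1, EPHX1, ERO1A, ESRRB, FGF5, GATA2, GATA6, GSC, HNRNPK, LXN, NDUFA4, P4HA1, PDK1, SMAD4, SOX15, SOX3, SPRED1, SPRY1, SYCP3, TCF7L2, TDRD10, TSTD1 and ZBTB34 overlap other annotated genes, as do those of NANOG, NODAL, DND1, GAPDH and ALDOA. The use of strand in counting is not stated, so part of their counts could belong to a partner, and genes named only for a correlation with another gene were not searched for overlaps. The median log2 ratio of all genes compared was 0.12, with 63.1% of them above 0 and 36.9% below, and scaling by median-of-ratios size factors instead of totals moved every ratio by -0.10 and the split to 12 higher and 69 lower.

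The ratio also moved with the level of the gene. Its median was 0.17 for the 1138 genes between 100 and 200 CPM, -0.12 for the 269 genes between 500 and 1000 CPM and -0.22 for the 107 genes above 1000 CPM, where 8.41% of the genes lay above 0 and 91.6% below. Between 500 and 1000 CPM 81.4% lay below 0, and in each of the bins from 50 to 500 CPM 28.3% to 35.1%. Within pgEpiSC_high the 15 named genes of highest CPM all had a negative Spearman correlation of CPM with the depth of the cell, from -0.79 for ERBB3 to -0.25 for TMSB4X. The high cells were the deeper ones, and the part of depth in these ratios was not tested. With each ratio taken relative to the running median of genes of similar level, a setting chosen after the data were seen, 12 genes were called higher and 85 lower, among them 12 of the 24 and 36 of the 36 above; relative to genes of similar level 50.6% of all genes lay above 0 and 49.1% below.

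TAC3 was the named gene with the largest ratio toward pgEpiSC_high. It had 209 CPM against 57.7, a log2 ratio of 1.84 with a 95% counting interval of 3.36 to 3.92 on the fold, and its cells overlapped those of pgEpiSC_low, which ran from 0 to 357 CPM. APOA1 had 155 against 47.5 CPM (1.68) and SFRP2 59.0 against 19.97 (1.52). PIMREG, a mitotic protein, had 68.5 against 25.5 CPM (1.39), EMP3, a membrane protein, 73.3 against 28.1 (1.35), HAUS4, of the augmin complex of the spindle, 87.9 against 35.0 (1.30), and ALPL, the alkaline phosphatase used as a stain for pluripotent cells, 56.9 against 23.9 (1.22). EPHX1 and AAMP each had 1.09.

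None of the 6 core pluripotency genes compared was called, and their median log2 ratio was 0.05, or -0.11 relative to genes of similar level. Toward pgEpiSC_high lay GDF3 (0.84) and SOX2 (0.74), and POU5F1 was furthest the other way (-0.62). Of the 9 formative and primed genes compared, SFRP2 was called higher, beside 0.539% of all genes, and none lower. CDH2 had 0.93, ETV5 -0.89, ZIC2 -0.69 and DNMT3B -0.41.

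Of 7 Nodal and activin genes compared, 2 were called lower. All 7 had ratios under 0, where 36.9% of all genes compared lay, and their median was -0.62 beside 0.12 for all genes. SMAD7, SMAD2, SMAD4 and NODAL were under the minimum CPM in pgEpiSC_high and were compared only through pgEpiSC_low, which fixed their sign. The count under 0 therefore does not show a shift of the whole list. LEFTY2 had 252 CPM against 610 (-1.27), with cells from 3.11 to 1446 in pgEpiSC_high and a median of 563 in pgEpiSC_low, so the cells overlapped. SMAD7, the inhibitory SMAD that is itself a target of the pathway, had 21.2 against 62.0 CPM (-1.50). On the deposited means SMAD7 was at -0.93 and not called, while with a pseudocount of 10 it stayed called (-1.21). The activin antagonist FST had 387 against 435 CPM (-0.17), and the transducers SMAD2 and SMAD4 had 43.8 against 55.2 and 46.9 against 72.6. NODAL had 42.6 against 68.0 CPM (-0.66), but a second model without a symbol had nearly the same counts, which leaves its value uncertain.

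None of the 6 FGF genes compared was called. All 6 had ratios under 0, beside 36.9% of all genes, with a median of -0.82. FGFR1, SPRY1 and SPRED1 were under the minimum CPM in pgEpiSC_high and were compared only through pgEpiSC_low, which fixed their sign. The count under 0 therefore does not show a shift of the whole FGF list. The receptor FGFR1 had 39.6 against 68.6 CPM (-0.78), and the feedback inhibitors DUSP6, SPRY1 and SPRED1 had 101.4 against 139 (-0.46), 27.8 against 51.2 (-0.86) and 37.2 against 73.0 (-0.95). Relative to genes of similar level ETV5 and SPRED1 were called lower, and all members of both lists stayed under 0, beside 49.1% of all genes. This count has the same limit for the members compared only through pgEpiSC_low. Of 4 BMP genes compared, 1 was called lower, beside 0.808% of all genes. This was the receptor BMPR1A, at 25 against 57.4 CPM (-1.17). It was not called with a pseudocount of 10 (-0.95) or on the deposited means (-0.77). The target genes ID1 and ID3 had 345 against 291 (0.25) and 232 against 369 (-0.67). In the WNT list CTNNB1 (263 against 257) and TCF7L2 (76.1 against 76.0) were compared and not called, and the target genes SP5 and DKK1 had no count in pgEpiSC_high.

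The genes of largest ratio toward pgEpiSC_low included several of glucose metabolism. BNIP3, a mitophagy receptor, had 40.1 CPM against 306 (-2.90), with high cells from 0 to 141 CPM and a median of 29.3. LDHA, lactate dehydrogenase A, had 209 against 703 CPM (-1.75), with high cells from 36.9 to 528 and a median of 190. SLC2A3, the glucose transporter GLUT3, had 186 against 521 CPM (-1.48), with high cells from 39.6 to 410. The high and low cells overlapped for both LDHA and SLC2A3, although the low medians of 658 and 495 CPM lay above every high cell.

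PDK1, the kinase that inhibits pyruvate dehydrogenase, had 32.2 against 95.3 CPM (-1.54), the mitochondrial adenylate kinase AK4 40.5 against 115 (-1.49), and the fructose transporter SLC2A5 50.2 against 128 (-1.33). Of 14 glycolysis genes compared, 3 were called lower, beside 0.808% of all genes. PDK1 was under 50 CPM in pgEpiSC_high and was compared only through pgEpiSC_low. All 14 had ratios under 0, with a median of -0.41, beside 36.9% of all genes and 81.4% to 91.6% of those above 500 CPM, where ENO1, PKM and GAPDH are among the members. The list's summed level ran from 4084 to 8446 CPM in high cells with a median of 6671, and from 6294 to 17851 in low cells with a median of 9450. Among the others were ENO1 at 879 against 1315 CPM (-0.58) and PGK1 at 281 against 467 (-0.73). GAPDH, ALDOA and PGAM1 share nearly all counts with other gene models, so their values are uncertain. Relative to genes of similar level all 14 stayed under 0, beside 49.1% of all genes, and 3 were called lower.

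The 15 genes of oxidative phosphorylation compared had a median of -0.09, with 7 above and 8 below 0 and none called. The 8 below 0, among them COX5B (918 against 1087 CPM) and NDUFA4 (825 against 973), had from 665 to 918 CPM in pgEpiSC_high and the 7 above 0 from 213 to 449.5, and relative to genes of similar level 10 of the 15 lay above 0. Also called lower were FOXO1, a forkhead factor held back by insulin signalling (37.5 against 107 CPM, -1.49), TSTD1 (52.7 against 153, -1.52), ZBTB34 (-1.35) and CBFB (-1.33). Chosen after their values were seen, the called genes P4HA1, ERO1A and KDM3A had 22.0 against 55.8, 36.5 against 88.5 and 24.1 against 50.7 CPM; they encode a collagen prolyl hydroxylase subunit, an oxidase of the endoplasmic reticulum and a histone demethylase.

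Of 39 genes of G2 and M compared, PIMREG was called higher. Above 0 lay 36 of the 39 genes, beside 63.1% of all genes compared, with a median of 0.31 beside 0.12. CDCA3 had 168 against 90.7 CPM (0.88), CCNB2, a mitotic cyclin, 112 against 65.5 (0.76), and CDK1, the mitotic kinase, 239 against 151 (0.66). Relative to genes of similar level 31 lay above 0, beside 50.6% of all genes, and the median was 0.18. The 28 S-phase genes had a median of 0.06, with 15 above and 13 below 0 and none called, and a median of -0.04 relative to genes of similar level.

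**Figure D4:**
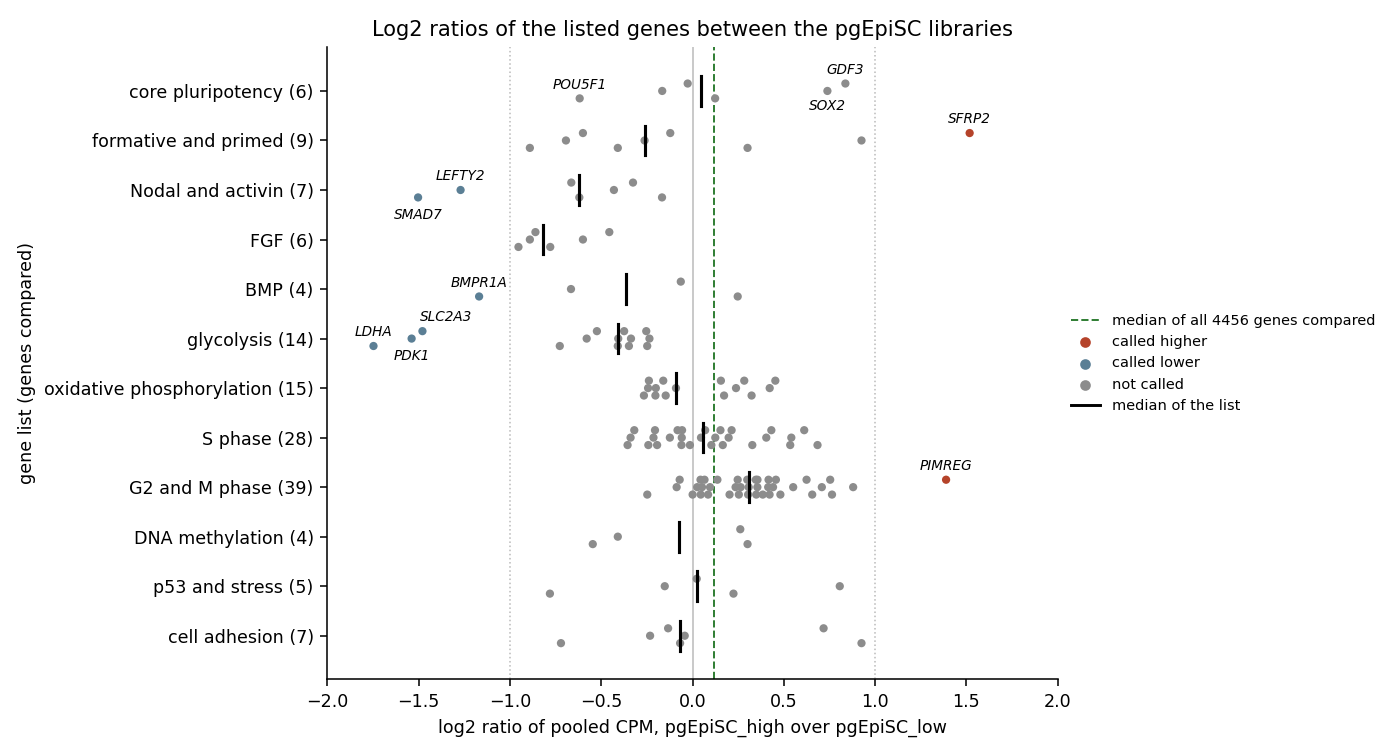
Log2 ratio of pgEpiSC_high over pgEpiSC_low for each gene compared in 12 gene lists, with a bar at the median of a list and a dashed line at 0.12, the median of all 4456 genes. The Nodal, FGF and glycolysis genes all lie under 0 and 36 of 39 G2 and M genes above it, beside 36.9% and 63.1% of all genes. Members under the minimum CPM in 1 library, among them SMAD7, FGFR1 and PDK1, were compared only through the other, which fixed their sign. Dotted lines mark ratios of -1 and 1.

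Against the embryo, values come from the authors' deposited table of mean log2(CPM/10 + 1) over the cells of a group. By the authors' deposited table, 140 of 25749 genes (0.544%) had a mean at least 1 higher in pgEpiSC_high than in the Epiblast_E10 group and 567 (2.2%) at least 1 lower. The Epiblast_E10 cells came from embryo libraries, so being a cell line and being another library cannot be told apart. In the authors' deposited table POU5F1 had 4.80 in pgEpiSC_high and 5.18 in Epiblast_E10, SOX2 3.92 and 4.26, NANOG 2.82 and 2.66, and OTX2 4.06 and 3.98.

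In the authors' deposited table LEFTY2 had 4.15 in pgEpiSC_high, 5.52 in pgEpiSC_low and 0.22 in Epiblast_E10, and 0 of the 37 embryonic groups had a higher mean. TAC3 there had 4.00, 2.14 and 0.82, and again 0 of the 37 groups were higher. By the same authors' deposited table the next differences were in VMO1 (2.83), DCLK1 (2.38), a doublecortin-like kinase, PCP4 (2.25), a calmodulin-binding protein, SCG5 (2.01), a chaperone of hormone-processing enzymes, and SFRP1 (1.83), a WNT-binding protein; USP3, a deubiquitinase, had 2.68 against 0.68, and GSTA4 and the carbonic anhydrase CA14 had 1.81 each. NME7 and ATP1B1 had 3.81 and 3.24 in the authors' deposited table, but the genes lie 266 bases apart and their counts had a Pearson correlation of 0.926 over the high cells, so their reads may not be told apart.

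The largest differences toward Epiblast_E10 in the authors' deposited table were in genes that follow. GTSF1, a cofactor of the piRNA pathway, had 0.07 in pgEpiSC_high and 4.19 in Epiblast_E10, TDRKH, a Tudor protein of that pathway, 0.39 and 3.82, and SYCP3, of the meiotic synaptonemal complex, 0.81 and 3.62, while TDRD10, another Tudor protein, differed by -3.28, all in the authors' deposited table. Others there were CCN2, a secreted matricellular protein, at 0.62 and 4.28, TSTD1 at 1.56 and 4.89, and the heat shock genes HSPA6 (-3.29), AHSA1 (-2.78) and DNAJB1 (-2.74). LXN, HTATIP2 and MAPT differed by -3.02, -2.85 and -2.73 in the authors' deposited table. The means of pgEpiSC_low were on the same side of Epiblast_E10 for GTSF1 (0.03), CCN2 (0.51) and TDRKH (0.18) in the authors' deposited table.

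Among listed genes, the authors' deposited table gave 4 of 12 core pluripotency genes at least 1 lower than in Epiblast_E10, and none higher. These were DPPA2 (-2.31), GDF3 (-2.09), TDGF1 (-1.67) and DPPA4 (-1.43). Over all 25749 genes 2.2% were lower and 0.544% higher. These shares include genes whose Epiblast_E10 mean was too low to fall by 1, so they are not a matched base for the lists. Of 14 Nodal and activin genes there LEFTY2 was higher, and NODAL (-1.76) and TDGF1 lower. Of 14 BMP genes in the authors' deposited table SMAD5 (1.01) was higher and ID2 (-2.36), BAMBI (-1.26), BMPR2 (-1.13) and ID1 (-1.05) lower. NES (1.52), CDH2 (1.36), KIT (1.29) and ZIC2 (1.25) were higher in the authors' deposited table, and PIM1 (-2.28), DND1 (-2.04), TEAD4 (-1.89), KRT18 (-1.64) and CDH1 (-1.37) lower. No listed gene of the primitive streak, endoderm, hypoblast or fibroblast lists differed by 1 or more there.

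**Figure D5:**
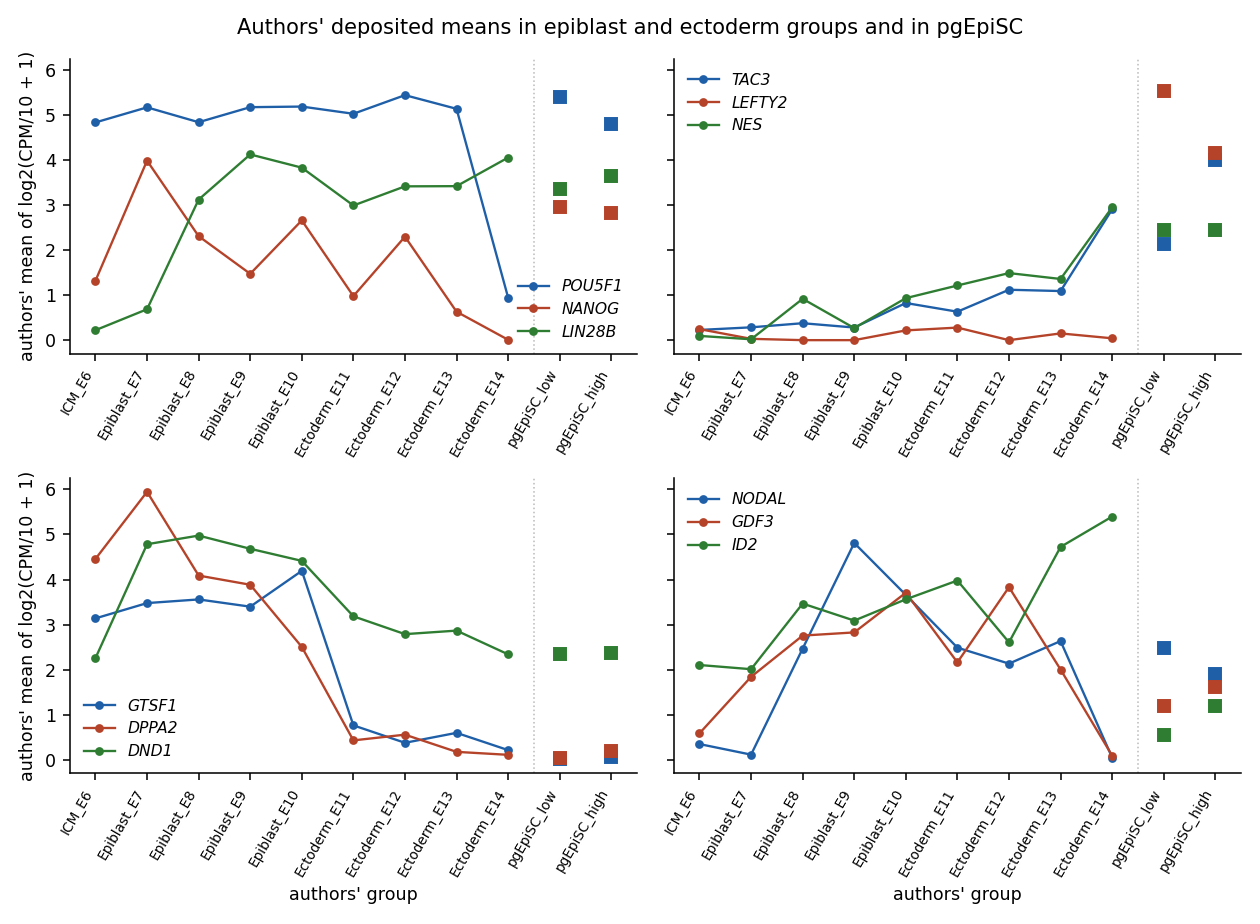
Means of log2(CPM/10 + 1) from the authors' deposited table for 12 genes, across epiblast and ectoderm groups from E6 to E14 (lines) and in both pgEpiSC libraries (squares). LEFTY2 and TAC3 are at 4.15 and 4.00 in pgEpiSC_high and at 0.22 and 0.82 in Epiblast_E10, while GTSF1 is at 0.07 against 4.19.

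Over the 2000 genes of largest variance among the 37 embryonic means, the mean profile of pgEpiSC_high in the authors' deposited table had its highest Spearman correlation with Epiblast_E10, at 0.933, followed by Ectoderm_E12 and Ectoderm_E13 at 0.917 each, Ectoderm_E11 at 0.910 and Epiblast_E9 at 0.868. These are correlations across genes, which are not independent replicates. The order at the top depended on the measure: with Pearson correlation Ectoderm_E13 came first at 0.946 and Epiblast_E10 had 0.936, and over all genes with a mean of at least 1 the values were 0.950 and 0.949. The correlation with pgEpiSC_low was 0.982.

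By chromosome, the median log2 ratio of pgEpiSC_high over pgEpiSC_low, over 6178 genes with at least 20 CPM and less the median of all, lay between -0.14 for chromosome 11 (123 genes) and 0.05 for chromosome 7 (398 genes). No chromosome with 20 or more genes stood further from the rest, and X had -0.02 over 191 genes. The Y-linked genes EIF1AY, ZFY and KDM5D had 15.9, 5.20 and 2.30 CPM in pgEpiSC_high. These counts were uneven between cells: the summed level of these genes in a high cell had a median of 1.17 CPM and a highest value of 152. Among the 15 named genes of highest CPM, a value not divided by gene length, were TMSB4X at 2031 CPM and TMSB10 at 1697, which encode actin-binding thymosins, and EEF1A1 at 1417, which encodes a translation elongation factor.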

How the data were processed

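Single cells were lysed with a barcode each and their polyadenylated RNA was sequenced by modified Smart-seq2, per the labels' protocols. Per the submitters' processing notes, the build was Sscrofa11.1 and the tools included UMI-tools, featureCounts 1.6.4 and STAR 2.7.1a, with no role or order; whether a count is a molecule or a read is not stated there. The deposited table of raw counts covers 1647 cells, with 29214 rows of pig genes and 92 of spike-in RNA. A deposited table gives the authors' means, and another their standard deviations, of log2(CPM/10 + 1) over the cells of 39 groups; for pgEpiSC_high, 99.87% of the deposited means were within 0.001 of values computed from the counts. The embryonic columns of these tables, recorded as a unit other than log2 because they belong to several samples, are on the same scale by the authors' construction.

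Counts were summed over the cells of a library and scaled to a pig total of 1000000 (CPM). No cell was left out except where a minimum of 50000 counts is stated, and no doublet caller was run. Gene symbols came from the reference table for 14800 identifiers, and for 777 more from the authors' symbol whose 4 deposited pgEpiSC values matched within 0.0002. The 27 gene lists hold 382 genes, of which 348 were named. The members and lists were chosen with earlier results of these data known. Named were members of the lists, the 15 genes of highest CPM, the 12 largest called log2 ratios and the 12 largest differences from Epiblast_E10 per direction, and the 20 genes of highest relative spread; ribosomal, mitochondrial and symbol-less genes were counted but not named. A few genes that this rule names are not reported here. Intervals are exact, at 95%, and cover counting error alone.

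Ratio, interval, spread and thinning steps were tested on simulated data. Python 3.11.15 with numpy 2.4.6, pandas 2.3.3, scipy 1.17.1 and matplotlib 3.10.9 was used. Alternatives were other pseudocounts, scalings, minimum levels, cells, spread measures, score centres, reference groups and correlations, and the ratio relative to genes of similar level.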

Additional observations from a re-analysis of the deposited data

How the results depend on the processing

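No paired analysis was possible because each pgEpiSC group is 1 library, and for the same reason no replicate could be left out. The cause of the shifts below was not tested. Against 60 genes called between the libraries (24 higher, 36 lower), a pseudocount of 10 gave 30 (10 and 20), a minimum of 10 CPM 373 (185 and 188), no minimum 1196 (744 and 452), the ratio relative to genes of similar level 97 (12 and 85), and the deposited means 37, with 13 lower. Size factors gave 12 higher and 69 lower. All 30 genes called with a pseudocount of 10 were among the 60. With the spread taken as the SD of log2(CPM/10 + 1), 10 of the 20 most variable genes were shared. Centred on pgEpiSC_high alone, 19.6% of the cells were in neither phase. Against 707 genes apart from Epiblast_E10 (140 higher, 567 lower), Epiblast_E9 gave 1671 (401 and 1270) and Ectoderm_E11 483 higher and 313 lower. A difference of at least 2 from Epiblast_E10 gave 73 (15 and 58). With pgEpiSC_low in place of pgEpiSC_high, 1258 genes were apart from Epiblast_E10, 1146 of them lower. The median share of cells with a count of a core pluripotency gene was 64.1% with cells thinned and 70.3% with at least 2 counts. Of the remaining 29 summary values and 210 values of single genes or chromosomes, 29 and 157 moved by less than the counting interval or the set tolerance, and no called value changed sign. Shallow cells limit statements on genes near the floor.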
